A study of Homo sapiens with 32 samples.

Results

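The mitochondrial respiratory chain passes electrons from NADH and succinate to oxygen and stores the energy as a proton gradient, which the ATP synthase uses to make ATP. Complex I is the NADH dehydrogenase, complex II the succinate dehydrogenase, complex III the cytochrome bc1 complex, complex IV the cytochrome c oxidase and complex V the ATP synthase. A few core subunits are encoded by mitochondrial DNA, while all the others are encoded in the nucleus, translated by cytosolic ribosomes and imported. The nuclear-encoded subunits of the 5 complexes were taken here as the protein-coding genes with a symbol of the families NDUFA, NDUFB, NDUFC, NDUFS, NDUFV, SDH, UQCR, CYC1, COX4 to COX8 or ATP5. The rule found 88 of the 19815 protein-coding genes, with 36 in complex I, 4 in complex II, 10 in complex III, 19 in complex IV and 19 in complex V. NDUFA4 and its paralogue NDUFA4L2 were counted with complex IV, of which NDUFA4 is now known to be a subunit. COX7A2L, ATP5S and ATP5SL carry these names by history and are counted as assembly or coupling factors rather than subunits, but the rule keeps them.

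The data were RNA-Seq counts of total mRNA (T) and of mRNA from the polysomal fractions of a sucrose gradient (P), in MCF10A, a non-tumorigenic breast epithelial line, and MDA-MB-231, a metastatic triple-negative breast cancer line. Each line was cultured in normoxia (N), in hypoxia of 0.5% O2 for 24 hours (H), in normoxia with PP242, an inhibitor of the mTOR kinase, at 2.5 µM for 3 hours (NPP), or in hypoxia with PP242 (HPP). No gene was edited and no transgene was carried in any group, and each type of cell is represented by a single line. There were 32 libraries in 16 groups, 2 biological replicates per group, with the T and P libraries of a replicate numbered as the same culture in their titles. A library held 18340916 to 46032327 counts, with a median of 34561484.

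The labels were checked against marker genes fixed for each line, as normalised CPM, the counts scaled to a common library size. In the MCF10A libraries the basal keratins KRT5 and KRT14 lay between 1190 and 3268 CPM and between 458 and 4203 CPM, but the epithelial genes CDH1 and EPCAM and the basal factor TP63 reached at most 0.361, 0.461 and 0.226 CPM. The mesenchymal genes VIM and FN1 lay between 1692 and 9370 CPM and between 1057 and 8617 CPM in the same libraries, so the keratins fitted the label and those other markers did not. CDH2 and SPARC, further mesenchymal genes, also went against the label, at 28.2 to 87.7 CPM and 91.7 to 203 CPM. The MDA-MB-231 libraries held VIM at 3113 to 6082 CPM and ZEB1 at 43.6 to 88.2 CPM, with KRT5 at no more than 0.284 CPM, but CDH2 and SPARC reached only 1.53 and 0.796 CPM and EPCAM lay between 9.86 and 19.1 CPM, above every MCF10A library. FN1 lay between 77 and 283 CPM in MDA-MB-231, below every MCF10A library. FN1, CDH2, SPARC and EPCAM thus went against the labels of both lines. CA9, a carbonic anhydrase induced by the hypoxia-inducible factors (HIF), lay between 7.72 and 26.9 CPM in the normoxic and between 522 and 1356 CPM in the hypoxic MCF10A libraries. In MDA-MB-231 it lay between 0.0568 and 1.02 CPM and between 13 and 34.6 CPM, and in neither line did the ranges overlap. Of the markers of other cells, COL1A1 was the highest, at 3.62 to 19.2 CPM in MCF10A and 8.44 to 16.5 CPM in MDA-MB-231, and no other exceeded 2.17 CPM.

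The subunit mRNAs are short, with a median transcript length of 660 bases against 1880 for all protein-coding genes, and several MCF10A libraries differed from the rest by transcript length. The slope of each gene's log2 deviation from the line mean on the log2 of transcript length was −0.31 in replicate 2 of NPP T, −0.20 in replicate 1 of N P, −0.17 in replicate 2 of HPP T and −0.12 in replicate 1 of H P, while the other 28 libraries lay between −0.091 and 0.139. The median log2 deviation of the subunit mRNAs was 1.14 in N P replicate 1, 0.75 in H P replicate 1 and 0.72 in NPP T replicate 2, and −0.82 in HPP P replicate 2 and −0.62 in H T replicate 1. The MCF10A replicates also varied more, with a biological coefficient of variation of 0.325 against 0.150. The main MCF10A counts and medians, and the polysomal changes of its leading genes, are also given without N P replicate 1 or NPP T replicate 2, a choice made after the values were seen. H P replicate 1 and HPP T replicate 2 were left out in turn like every other library, but not together.

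**Figure D1:**
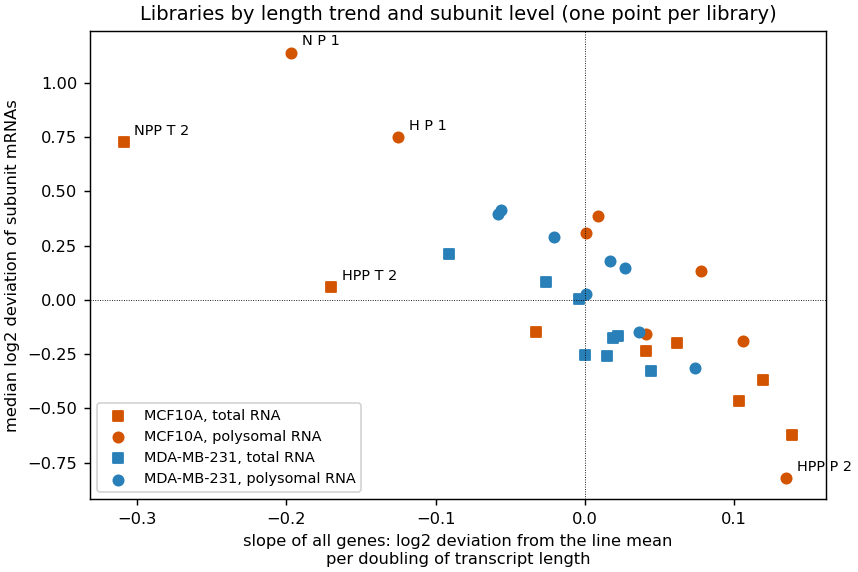
Each point is 1 of the 32 libraries, with the slope of all genes on transcript length (log2 deviation per doubling of length) on the x axis and the median log2 deviation of the subunit mRNAs on the y axis, squares for T and circles for P. The MCF10A libraries N P 1 and NPP T 2 lie at upper left, with slopes of −0.197 and −0.309, and HPP P 2 lies at lower right with a median deviation of −0.821.

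Of the 88 genes, 81 passed the filter on low counts in MCF10A, and 80 did so in MDA-MB-231. ATP5L2, COX4I2, COX6A2, COX6B2, COX7A1, COX7B2 and COX8C were not tested in either line, and NDUFA4L2 was tested only in MCF10A. Together the 88 genes took 0.968 to 2.216% of the protein-coding counts of a library. The counting did not use strand as far as stated, and UQCRHL, a copy of UQCRH, and ATP5EP2, a copy of ATP5E, share sequence with their source genes, so their values are uncertain.

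The tissue-type and hypoxia-type forms of the complex IV subunits stayed close to 0 in every condition of both lines. COX4I1 and COX4I2 encode the alternative forms of the largest nuclear-encoded subunit of complex IV, and COX4I2 is known as the form induced by low oxygen. COX4I1 (chr16:85798633-85807068, plus strand, GRCh38) had 237680 counts summed over the 16 MCF10A libraries and 144367 over the 16 MDA-MB-231 libraries. COX4I2 (chr20:31637912-31645006, plus strand) had 2 and 1 counts, so no change could be detected at this depth. The other tissue-type forms also had few counts: COX6A2 had 0 counts in both lines, COX6B2 11 and 42, COX7A1 1 and 9, COX7B2 0 and 4, and COX8C 4 and 7.

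NDUFA4L2 (chr12:57234903-57240715, minus strand), a HIF target that is related to NDUFA4 (chr7:10931943-10940153, minus strand), had 9 counts in all 16 MDA-MB-231 libraries. In MCF10A total RNA it had 11 and 9 counts in N, 27 and 19 in H, 4 and 14 in NPP, and 14 and 11 in HPP. As a length-scaled share of the NDUFA4 pair this was 0.292 and 0.218% in N and 0.963 and 0.501% in H (the 95% Wilson intervals, which cover counting error only, were 0.663 to 1.40% and 0.321 to 0.781% in H). Both hypoxic libraries lay above both normoxic ones, but the log2 fold change of 1.21 had a standard error (SE) of 0.97 and an edgeR adjusted p of 0.838. In polysomal RNA NDUFA4L2 had 8 and 5 counts in N and 8 and 82 in HPP, where a single library held most of the reads. Its polysomal log2 fold change of 2.52 (SE 1.00, edgeR adjusted p = 0.0938) thus rested on HPP P replicate 2. In every library of both lines NDUFA4L2 stayed a minor part of the pair, with the highest share at 2.44% (HPP P replicate 2 of MCF10A). Without division by length the shares were about 2 times lower, with 1.145% in that library and 0.136 and 0.101% in N T.

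In total RNA no subunit mRNA passed the test for a response to hypoxia. None of the 81 tested in MCF10A and none of the 80 in MDA-MB-231 passed an adjusted p of 0.05 in edgeR's quasi-likelihood test for H against N, against 1.54% and 1.27% of all tested genes. An unadjusted p under 0.05 was reached by 0 and 1, and DESeq2 called 0 and 1. The median log2 fold change was −0.14 in MCF10A, where that of all genes was −0.03, and 0.06 in MDA-MB-231. Both medians changed sign with single libraries, reaching −0.39 without H T replicate 2 and 0.06 without H T replicate 1 in MCF10A, against −0.21 and 0.29 without those of MDA-MB-231. The lowest subunit in MCF10A was ATP5G1, which encodes 1 of the c-subunit precursors of the ATP synthase, at −0.76, and the lowest in MDA-MB-231 was ATP5S at −0.55 (edgeR adjusted p = 0.0726). NDUFA8, an accessory subunit of complex I, was the highest in MDA-MB-231 at 0.37. Over the same libraries 4 of 9 HIF targets that act on respiration rose in total RNA in each line, where 1.39% and 0.977% of all tested genes rose.

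PP242 in normoxia called no subunit in total RNA in either line by edgeR, where 0.648% of MCF10A and 0.555% of MDA-MB-231 genes passed. No subunit reached an unadjusted p under 0.05 and none was called by DESeq2. The MCF10A median of 0.51 rested on NPP T replicate 2: it was −0.20 without that library and 0.97 without replicate 1. With hypoxia and PP242 together, 14.9% of MCF10A and 13.2% of MDA-MB-231 genes passed in total RNA. The subunits had 0 calls in MCF10A, with 2 at an unadjusted p under 0.05 and 0 by DESeq2, and 1 call in MDA-MB-231. That gene was ATP5G1 (chr17:48892765-48895871, plus strand), with 100.0 and 117 CPM in N and 62.2 and 70.4 CPM in HPP. It fell by 0.71 on the log2 scale (SE 0.22, edgeR adjusted p = 0.0469), but kept its call in only 8 of 22 alternatives. DESeq2, no filter on low counts, the length offset and the 4 compared libraries alone each called NDUFS6 as well, and a replicate block within each fraction called 4 that fell (ATP5G1, NDUFS6, CYC1 and NDUFA3), where 10.2% of all tested genes fell. The median log2 fold change under HPP in total RNA was 0.04 for MCF10A, with −0.27 without HPP T replicate 2 and 0.39 without HPP T replicate 1, while MDA-MB-231 had −0.24 (−0.31 to −0.15 with 1 library left out). Same-numbered total RNA libraries of MCF10A deviated together, although no label pairs them. With a replicate block within each fraction 4 MCF10A subunits fell in total RNA under HPP (NDUFS1, NDUFS6, ATP5G1 and UQCRFS1), where 14.9% of all tested genes fell.

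Polysomal levels of many subunit mRNAs fell under hypoxia with PP242 in MDA-MB-231, in complexes I, III, IV and V. In MCF10A fewer passed, and the share of complex I that fell there lay below that of all tested genes. With all libraries in, the complex I median was nonetheless lower in MCF10A than in MDA-MB-231, and the MCF10A replicates varied more. In MDA-MB-231 35 of 80 fell and none rose in HPP P against N P, where 9.73% of all tested genes fell. In MCF10A 15 of 81 fell and none rose, where 11.9% of all tested genes fell. An unadjusted p under 0.05 was reached by 51 and 38, where 34% and 36.2% of all tested genes had one, and DESeq2 called 45 and 30, all of them lower, where 13.3% and 14.9% fell. Each library was scaled to its own total, so a change shared by all mRNAs cannot be seen. The log2 fold change lay below 0 for 78 of 80 in MDA-MB-231 and for 76 of 81 in MCF10A, with medians of −0.52 and −1.04 against 0.01 and −0.04 over all tested genes. Of the 15 and 35 genes that fell, 12 were shared, which is 80.0% of the first list and 34.3% of the second. These counts depended on single libraries. Without N P replicate 1 the MDA-MB-231 count was 5 (median −0.29) and without HPP P replicate 1 it was 3 (ATP5G2, COX5A and ATP5D), while without HPP P replicate 2 it was 15 and without either HPP T library 22. Of all tested genes 4.03%, 2.59% and 4.06% fell without these P libraries, in that order, and 7.59% and 7.56% without HPP T replicate 1 and 2. In MCF10A 1 gene (UQCRB) passed without N P replicate 1, none without HPP P replicate 2, and 4 (ATP5G2, UQCRB, COX5A and UQCRFS1) without both N P replicate 1 and NPP T replicate 2, with medians of −0.38, −0.81 and −0.39, where 4.43%, 3.6% and 7.75% of all tested genes fell. The MCF10A count was 8 without HPP P replicate 1 or H T replicate 2 and 9 without either NPP P library, where 8.34%, 8.86%, 9.81% and 9.83% fell. It rose to 24 and 32 without NPP T replicate 2 and 1, where 13.4% and 15.2% of all tested genes fell, to 26 without N P replicate 2 (10.3%) and to 45 with a replicate block within each fraction, where 19.8% of all tested genes fell.

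**Figure D2:**
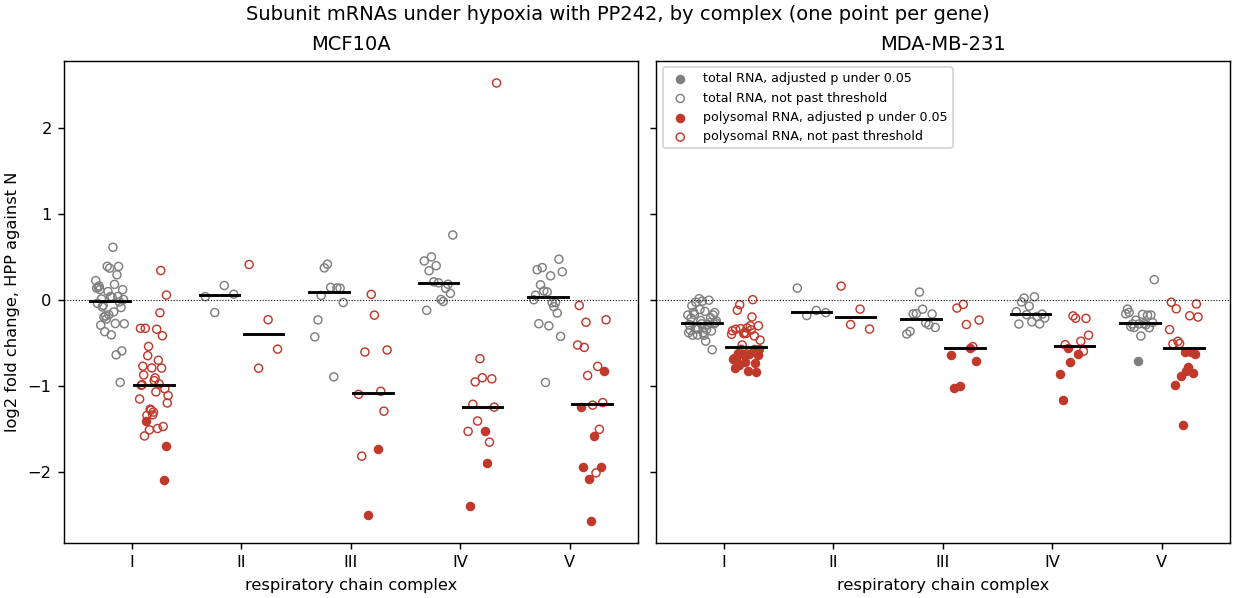
Each point is 1 gene, with the complex on the x axis and the log2 fold change of HPP against N on the y axis, grey for total and red for polysomal RNA, filled where the adjusted p was under 0.05, and bars at the medians. The polysomal medians of complexes I, III, IV and V lie between −0.99 and −1.25 in MCF10A and between −0.54 and −0.56 in MDA-MB-231, while complex II lies at −0.40 and −0.20.

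By complex, the ATP synthase had 7 of 18 genes that fell in MCF10A and 9 of 18 in MDA-MB-231, where 11.9% and 9.73% of all tested genes fell. Complex I had 3 and 16 of 36, complex III 2 and 5 of 10, complex IV 3 of 13 and 5 of 12, and the succinate dehydrogenase none of 4. With N P replicate 1 of MCF10A left out the single call was in complex III, where 4.43% of all tested genes fell, and the medians were −0.31, −0.50, −0.53 and −0.65 for complexes I, III, IV and V and −0.15 for complex II. The same step in MDA-MB-231 left 3 calls in complex V and 1 each in complexes III and IV, where 4.03% of all tested genes fell, with medians of −0.26, −0.45, −0.37 and −0.34 against −0.05 for complex II. The difference between complexes was not tested.

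ATP5G2 (chr12:53632726-53677408, minus strand), which encodes another precursor of the membrane c subunit of the ATP synthase, had the largest fall of all subunits in both lines. In MDA-MB-231 polysomes it stood at 348 and 308 CPM in N, 334 and 270.4 CPM in H, 173 and 166 CPM in NPP, and 116 and 123 CPM in HPP. The libraries with PP242 lay below all of those without it. The log2 fold change of HPP against N was −1.46 (SE 0.18, edgeR adjusted p = 9.7e-05), a fold of 0.364, and it passed in 22 of 22 alternatives with values between −1.54 and −1.30. In MCF10A it fell from 976 and 453 CPM to 148 and 92.1 CPM, with NPP at 254 and 246 CPM, a log2 fold change of −2.57 (SE 0.54, edgeR adjusted p = 0.00683) that passed in 21 of 23 alternatives with values between −3.03 and −1.86. It was lost without N P replicate 1, at −1.86, and without HPP P replicate 2. Its total RNA in MCF10A was 325 and 335 CPM in N and 265 and 438 CPM in HPP, where the groups overlapped, and in MDA-MB-231 196 and 214 CPM in N and 162 and 175 CPM in HPP.

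In complex IV the leading gene was COX5A, a matrix-side subunit, which went from 221 and 178 CPM to 80.0 and 97.03 CPM in MDA-MB-231 (log2 fold change −1.17, SE 0.19, edgeR adjusted p = 0.000906). In MCF10A COX5A went from 444 and 221 CPM to 79.7 and 46.5 CPM (−2.40, SE 0.50, edgeR adjusted p = 0.00628), and without N P replicate 1 it had −1.75 and did not pass. COX4I1 fell in MDA-MB-231, from 439 and 372 CPM to 208 and 240 CPM (−0.86, SE 0.19, edgeR adjusted p = 0.00609). Its MCF10A values of 972 and 414 CPM in N and 288 and 191 CPM in HPP did not overlap either, but the adjusted p was 0.0566 by edgeR, and the log2 fold change of −1.53 was −0.73 without N P replicate 1. COX7A2L, which takes part in respiratory supercomplexes, fell by 1.53 in MCF10A (−1.24 and not passing without N P replicate 1) and by 0.63 in MDA-MB-231.

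In complex III UQCRB, a small subunit that binds ubiquinone, went from 313 and 249.8 CPM to 127 and 153 CPM in MDA-MB-231 (−1.005, SE 0.22, edgeR adjusted p = 0.00666) and from 665 and 314 CPM to 107.99 and 65.1 CPM in MCF10A (−2.50, SE 0.48, edgeR adjusted p = 0.00416), where it had −1.80 without N P replicate 1 and still passed. UQCRFS1, the Rieske iron-sulfur protein, fell in both lines, by 1.74 in MCF10A and by 0.57 in MDA-MB-231. UQCR10, another small subunit, fell in MDA-MB-231 (−1.03, SE 0.22, edgeR adjusted p = 0.0058). Under NPP COX5A had 131 and 119 CPM and UQCRB 175 and 174 CPM in MDA-MB-231, between their N and HPP values. In complex I NDUFS6, an accessory subunit of the matrix arm, had the lowest value in both lines, −2.09 in MCF10A and −0.84 in MDA-MB-231. ATP5D, the delta subunit of the catalytic head of the ATP synthase, fell by 1.94 and by 0.99. In MCF10A UQCRFS1, NDUFS6 and ATP5D had −1.41, −1.54 and −1.05 without N P replicate 1, and none of the 3 passed.

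Complex II, which had no called subunit, held the highest value in MDA-MB-231, that of SDHA. SDHA, the flavoprotein of complex II, stood at 210.2 and 198 CPM in N and 231 and 225 CPM in HPP in MDA-MB-231 polysomes, and at 139 and 147 CPM and 166 and 214 CPM in MCF10A. Its log2 fold changes of 0.16 (SE 0.12, edgeR adjusted p = 0.378) and 0.41 (SE 0.27, edgeR adjusted p = 0.298) did not pass. SDHB, the iron-sulfur protein, and SDHC and SDHD, the membrane anchors, had −0.80, −0.23 and −0.57 in MCF10A (−0.35, −0.07 and −0.23 without N P replicate 1), against −0.29, −0.11 and −0.34 in the cancer line, and none passed.

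The start of the transcript was shown for these genes because mRNAs that begin with a C followed by a run of pyrimidines, as those of ribosomal proteins do, are known to depend on mTOR for translation. RefSeq promoter windows on GRCh38.p14, 250 bases before to 50 after the annotated start, were found for 69 of the 88 genes. The motif was a C within 5 bases of the start, on the sense strand only, followed by at least 4 letters that are each C or T, and it was added after the values had been seen. Each sequence below runs 5′ to 3′ over the 15 bases before and the 15 from the start, with the pyrimidine run in capitals. The first 5 hold such a run and the last 3 do not.
ATP5G2 (chr12:53675405-53675434, minus strand): ttatttaccagtaCCTTTCTCgcatcccgg
COX4I1 (chr16:85799680-85799709, plus strand): cggcgcggccttgCTCTCTTCCggtcgcgg
COX7C (chr5:86617926-86617955, plus strand): ccatttcccatCTTTCTTTTCagtccttgc
ATP5O (chr21:33915790-33915819, minus strand): cccttgcgcgtttCTCTCTTCCCactcggg
ATP5E (chr20:59032321-59032350, minus strand): cttctgtggtctgatCTTCCTgcggctgaa
COX5A (chr15:74938059-74938088, minus strand): cgcccgctccggagcaacccgcgagcttac
SDHA (chr5:218305-218334, plus strand): aggcgcagtctgcgcagggactggcgggac
NDUFS1 (chr2:206159195-206159224, minus strand): gcctcccgccccgccgcctcggaagcccct

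Such a run was found in 18 of the 69 windows (26.1%), against 21.1% of the 35116 promoters in the same set, which includes genes of all kinds. With the run at the start base itself the numbers were 6 (8.70%) and 4.07%. The 18 genes with a run had median polysomal log2 fold changes under HPP of −1.34 in MCF10A, with 4 that fell, and −0.61 in MDA-MB-231, with 9 that fell. The genes with a window and no run had medians of −0.91 over 47 genes, with 8 that fell, and −0.48 over 46, with 19 that fell, and over all tested genes 11.9% and 9.73% fell. Without N P replicate 1 the MCF10A medians were −0.58 with a run and −0.26 with none, and 0 genes of either group passed, where 4.43% of all tested genes fell. In MDA-MB-231 they were −0.41 and −0.24 without its N P replicate 1, with 2 calls in each group, where 4.03% fell. COX5A, the most strongly lowered subunit of complex IV, has no run in the window printed above. ATP5E, with a run at the start base, had a polysomal minus total log2 fold change under HPP of 0.18 in MDA-MB-231 and −0.73 in MCF10A. In MDA-MB-231 that difference lay below 0 for 5 of the 6 genes with a run at the start base. The letters ACGTG or GCGTG, the core of the HIF binding site, stood on either strand in 42 of the 69 windows (60.9%) and in 48.4% of all promoters.

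PP242 in normoxia gave few calls on polysomes. In MDA-MB-231 ATP5G2 (−0.95, SE 0.18, edgeR adjusted p = 0.0101) and ATP5D (−0.69, SE 0.16, edgeR adjusted p = 0.0369) fell on polysomes, where 1.95% of all tested genes passed, and the median of the subunits was −0.19. Both calls were lost without N P replicate 1, where the median was 0.01, and without either NPP P library. That of ATP5D was also lost without any 1 of the HPP libraries and with the 4 compared libraries alone, 8 of 22 alternatives in all. Other alternatives called more, all of them lower: 7 by DESeq2, where 2.44% of all tested genes fell, 6 without a filter on low counts (1.32%) and 5 with a replicate block within each fraction (1.95%). In MCF10A no subunit passed by edgeR or DESeq2, with 4 at an unadjusted p under 0.05 and 0.823% of all genes called. The median was −0.37, but 0.25 without N P replicate 1. The lowest value in MCF10A was again ATP5G2 at −1.52 (SE 0.53, edgeR adjusted p = 0.209). With a replicate block within each fraction ATP5G2 and UQCRB fell in MCF10A, where 2.53% of all tested genes fell. All of these comparisons share their N libraries with those for HPP and H.

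On polysomes ATP5G2 held a smaller share of the c-subunit mRNAs in every library with PP242 than in every library without it. ATP5G1, ATP5G2 and ATP5G3 encode the same mature c subunit behind different import presequences, so their shares describe which precursor is being read. In normoxic polysomes ATP5G2 held 29.8 and 27.7% of the length-scaled counts of the family in MCF10A, while in MDA-MB-231 it held 30.9 and 31.8%. With PP242 it held 15.6 and 15.97% (NPP) and 18.7 and 15.2% (HPP) in MCF10A, and 22.1 and 22.8% (NPP) and 21.8 and 21.2% (HPP) in MDA-MB-231. In total RNA the share did not fall, with 29.3 and 30.5% in N and 38.5 and 41.7% in HPP in MCF10A, and 31.5 and 30.1% against 33.9 and 35.5% in MDA-MB-231. The ratio of ATP5G2 to ATP5G3 counts on polysomes went from 0.990 and 0.787 in N to 0.415 and 0.297 in HPP in MCF10A, and from 0.847 and 0.952 to 0.488 and 0.505 in MDA-MB-231. The 2 libraries of a group never overlapped those of the other in these comparisons, an exact permutation of 2 against 2 cannot go below p = 0.333, and no model was fitted to the share. ATP5G3 (chr2:175176258-175181710, minus strand) itself had −1.23 in MCF10A (SE 0.42, edgeR adjusted p = 0.0542, and −0.72 without N P replicate 1) and −0.61 in MDA-MB-231 (SE 0.19, edgeR adjusted p = 0.04). The MDA-MB-231 call held in 15 of 22 alternatives, with values from −0.77 to −0.36, and was lost without N P replicate 1 or any 1 of the HPP T, NPP P and HPP P libraries.

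**Figure D3:**
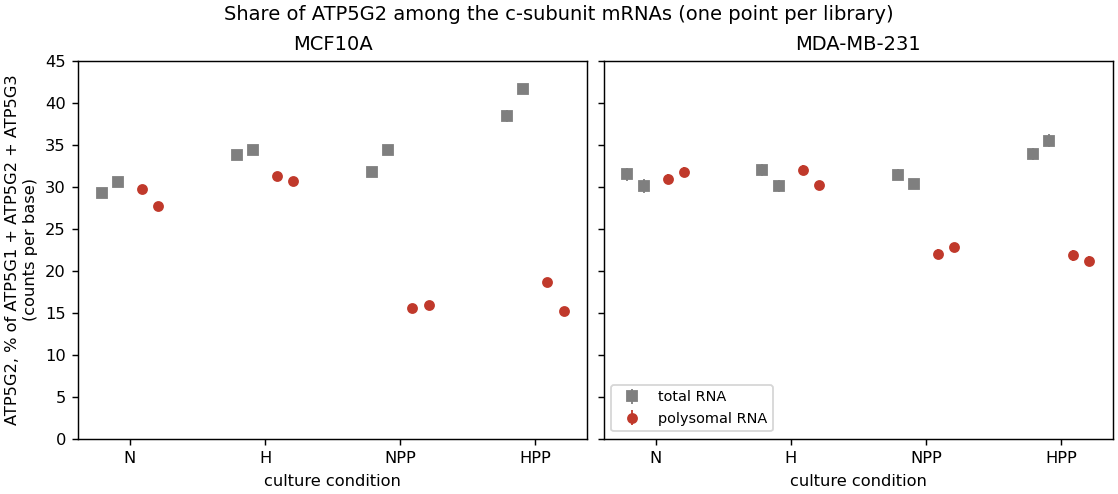
The y axis gives ATP5G2 as a percent of ATP5G1, ATP5G2 and ATP5G3 counts per base, with the culture condition on the x axis, 1 point per library, squares for total and circles for polysomal RNA, and 95% Wilson intervals that are mostly smaller than the points. Under NPP and HPP the polysomal points lie between 15.2 and 18.7% in MCF10A and between 21.2 and 22.8% in MDA-MB-231, below the total RNA of the same condition.

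Translational efficiency (Te) was taken as the polysomal minus the total log2 fold change, called at a z-score over all genes beyond 1.5 in size together with a polysomal adjusted p under 0.10 in MCF10A or 0.05 in MDA-MB-231. The thresholds are those of the study's supplementary table, and with the methods text's, which has them the other way round, 10 subunits were called in MCF10A under HPP, where 1.98% of all genes had a lowered Te. Under HPP 22 subunits of MCF10A had a lowered Te, where 2.6% of all genes did, and NDUFA4L2, with the few counts given above, had a raised Te of 1.77. UQCRB (−2.87, z = −3.62), ATP5G2 (−2.66, z = −3.36), COX5A (−2.28, z = −2.86) and COX4I1 (−1.98, z = −2.49) led the list. In MDA-MB-231 ATP5G2 alone was called (−1.18, z = −1.85), where 0.94% of all genes were lower. This call was lost without a filter on low counts (z = −0.98), where 19229 genes were tested. It was also lost in 15 of 16 settings with 1 library left out, all but that without N T replicate 2. In those 15 the Te stayed at −1.32 to −1.08, with z from −1.20 to −0.90. The z-score is taken over all tested genes, which numbered 14279 to 14348 in those settings against 13510 in the main one. The part of the larger gene set in the lost calls was not tested. The edgeR interaction of fraction and treatment called 0 subunits in MCF10A, and in MDA-MB-231 it called ATP5G2 at an adjusted p of 0.0482, which it kept in 12 of 22 alternatives and lost with a culture block. The MCF10A list held 3 lowered genes, UQCRB, ATP5G2 and COX5A, without N P replicate 1, without HPP P replicate 2 or with no filter on low counts, where 0.915%, 0.969% and 0.85% of all genes were lowered. It held 8 without HPP T replicate 2 (1.39%) and 12 to 14 without either N T library, HPP T replicate 1 or H T replicate 2 (1.79% to 1.9%). Without N P replicate 1 and NPP T replicate 2 it held 4, UQCRB, ATP5G2, COX5A and COX7A2L, where 1.22% of all genes were lowered. Under H and under NPP no subunit was called in either line. Of all 13124 genes tested in MCF10A, 18 were raised and 9 lowered under H, and 4 and 30 under NPP. Of the 13510 in MDA-MB-231, 9 were raised and 2 lowered under H, and 1 and 93 under NPP. For NPP in MCF10A DESeq2 and the length offset each called UQCRB and ATP5G2. A replicate block within each fraction called these and ATP5D. The medians for H and NPP were −0.17 and −0.85 in MCF10A, against 0.01 and −0.21 in MDA-MB-231. With 1 library left out the MCF10A medians ran from −0.83 (without H P replicate 1) to 0.37 (without N P replicate 1) for H, and from −1.33 (without NPP T replicate 1) to −0.12 (without NPP T replicate 2) for NPP, with −0.22 without N P replicate 1. Without both N P replicate 1 and NPP T replicate 2 the NPP median was 0.45. For HPP the MCF10A median was −1.05, and −0.41 without N P replicate 1. In MDA-MB-231 they ran from −0.21 to 0.31 for H, from −0.37 to −0.06 for NPP and from −0.42 to −0.12 for HPP.

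Under hypoxia alone no subunit fell on polysomes, and in MDA-MB-231 the highest values were those of the smallest proteins. There ATP5E, the epsilon subunit of the ATP synthase, rose from 106.3 and 87.6 CPM in N to 223 and 211 CPM in H (log2 fold change 1.16, SE 0.22, edgeR adjusted p = 0.0124), and it was the only subunit to pass, where 2.29% of all genes did. By unadjusted p under 0.05 the number was 20, where 17.2% of all tested genes had one, and DESeq2 called 4, where 2.91% of all tested genes rose. ATP5EP2, the copy of ATP5E, had 1.03 (SE 0.94) on 2 and 3 counts in N and 5 and 6 in H. UQCRQ, UQCR11, COX8A and ATP5I, all of them short, followed at 0.79, 0.75, 0.70 and 0.68 without passing in edgeR. The log2 fold change ran against protein length across 79 subunits (Spearman's rho −0.858, a description across genes that share libraries), with medians of 0.53 under 90 residues, 0.11 from 90 to under 200 and −0.20 from 200 on. Over the 13299 other tested genes with a protein length rho was −0.16, and the 198 of them under 90 residues had a median of 0.47, with 26 that rose (13.1%). In MCF10A no subunit passed on polysomes in H by edgeR or DESeq2, none had an unadjusted p under 0.05, 1.49% of all genes were called, and rho with protein length was −0.189. The MCF10A median of −0.31 turned to 0.26 without N P replicate 1. The ATP5E call was lost without N P replicate 2 of MDA-MB-231, while 4 passed (ATP5E, UQCRQ, UQCR11 and COX8A) with a replicate block (3.33% of all tested genes rose) or without either H T library (2.33% and 2.34%), 2 without N P replicate 1 (0.809%) or either NPP T library (1.79% each), and 9 with no filter on low counts, where 3.51% of all tested genes rose.

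In normoxia the lowest polysome association was again that of short subunit mRNAs. This comparison and that of H on polysomes use the same N P libraries with opposite sign, so their values are not independent. The P to T log2 ratio in N describes loading relative to all genes, since each fraction was scaled to its own total. In MDA-MB-231 22 subunits were higher and 7 lower in P than in T, where 4.42% of all tested genes were higher and 8.64% lower, so the share that was lower lay at that of all genes. ATP5E, of 51 residues, had 338 and 415 CPM in T and 106.3 and 87.6 CPM in P (−1.96, SE 0.22, edgeR adjusted p = 0.000146). UQCR11, of 56 residues, had 56.6 and 57.4 CPM in T and 18.03 and 12.5 CPM in P (−1.90, SE 0.21, edgeR adjusted p = 0.000126), and UQCRQ, of 82 residues, had −1.54 (SE 0.22, edgeR adjusted p = 0.000742). NDUFC1, ATP5I, NDUFB1 and COX8A, of 58 to 76 residues, were the other 4 that were lower, at −0.96, −0.95, −0.77 and −0.65. All 7 encode proteins under 90 residues, among which 16 were tested and 1 was higher, with a median of −0.36. Of the 63 tested with 90 residues or more, 21 were higher and none lower. Low association was not particular to short subunits, since 79 of the 198 other tested genes under 90 residues were lower (39.9%), with a median of −0.61, while 4.36% of those with 90 residues or more were higher. ATP5EP2 had −1.91 (SE 0.88) on 14 and 3 counts in T and 2 and 3 in P and did not pass. With a block for the culture that T and P share, 10 subunits were higher and 8 lower, where 3.58% and 9.9% of all tested genes were, and the 8 were the same 7 and UQCRH, of 91 residues.

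At the other end NDUFA13, a complex I subunit of 144 residues, had 104.2 and 114 CPM in T and 228 and 186 CPM in P (0.92, SE 0.19, edgeR adjusted p = 0.00838). SDHB, SDHC and SDHD were also higher in P, at 0.52, 0.54 and 0.51, of which SDHC alone passed with the culture block, and SDHA, at 0.33, did not pass. In MCF10A no subunit passed, nor did any of the 13124 tested genes by edgeR, and DESeq2 called no subunit. An unadjusted p under 0.05 was found for 36 of the 81 subunits and for 12.6% of all tested genes, and the medians were 0.26 under 90 residues, 1.12 from 90 to under 200 and 0.76 from 200 on. The median of all subunits was 0.85, and 0.34 without N P replicate 1, where that under 90 residues turned to −0.39. With a replicate block within each fraction 52 subunits were higher in P than in T and none lower, where 12.7% of all tested genes were higher. In MDA-MB-231 the count of 29 fell to 5 without either N T library and to 7 without N P replicate 1. Of all tested genes 0.202%, 0.702% and 0.586% were higher without N T replicate 1, N T replicate 2 and N P replicate 1, and 6.06%, 3.63% and 4.23% were lower. It rose to 47 without either H T library, to 48 with the length offset and to 49 with no filter, where 6.74%, 8.68% and 4.73% of all tested genes were higher. DESeq2 called 41 higher and 8 lower, where 9.91% and 8.59% of all tested genes were, and a replicate block within each fraction 48 and 7, where 10.2% and 11.7% were. Without either N T library or N P replicate 1 the MDA-MB-231 count fell mostly through subunits higher in P. ATP5E, UQCR11 and UQCRQ passed in 22 of 22 alternatives. NDUFA13 passed in 20 and lost its call without N T replicate 1 or N P replicate 1. Across the 80 subunits tested in both lines the loading values had a Spearman's rho of 0.821 as a description.

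**Figure D4:**
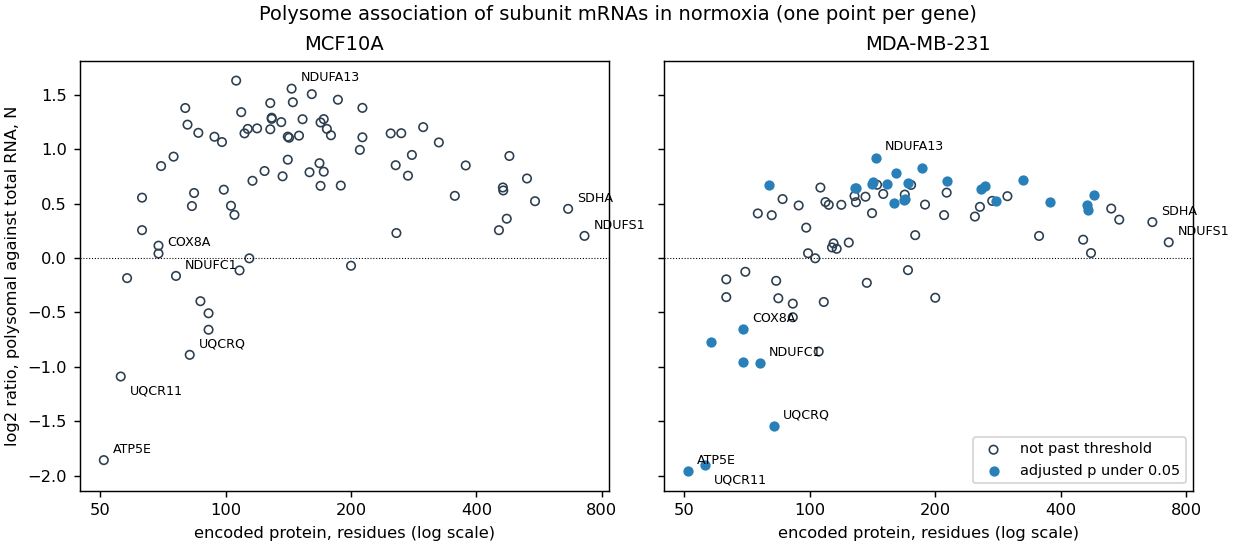
Each point is 1 subunit gene, with the length of the encoded protein in residues (log scale) on the x axis and the log2 ratio of polysomal to total RNA in N on the y axis, filled where the adjusted p was under 0.05. The lowest points in both lines are the short proteins ATP5E and UQCR11, at −1.96 and −1.90 in MDA-MB-231, and NDUFA13 is among the highest.

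The total RNA of the lines was compared in normoxia in a joint fit of the 32 libraries. In MDA-MB-231 18 of 81 subunits were lower than in MCF10A and none was higher, where 20.5% of all tested genes were lower, so the share was near that of all genes. SDHC was lower, at 174 and 178 CPM in MCF10A against 99.9 and 98.6 CPM in MDA-MB-231 (log2 difference −0.83, SE 0.20, edgeR adjusted p = 0.00203), as were SDHB (−0.80), NDUFB2 (−1.59), NDUFA7 (−1.40), ATP5G1 (−1.28) and UQCRC2, a core protein of complex III (−1.03). Of complex IV 0 of 13 subunits differed, and 8 of complex I, 2 of complex II, 2 of complex III and 6 of complex V were lower. The count fell to 4 without N T replicate 1 of MDA-MB-231 and to 6 without replicate 2, and to 7 and 9 without those of MCF10A, where 13.7%, 14.6%, 15.5% and 14.3% of all tested genes were lower, while SDHC and UQCRC2 passed in 37 of 37 alternatives. The tables of the lines were made separately. The paper lists EGF, hydrocortisone, cholera toxin and insulin in the medium of MCF10A but not of MDA-MB-231. Line, medium and sequencing thus cannot be told apart.

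No subunit differed between the lines in its response on polysomes to HPP by edgeR, where 3.6% of all tested genes did, with 6 at an unadjusted p under 0.05 and 1 by DESeq2 (ATP5S). A replicate block within each fraction called 5 (UQCRB, COX5A, NDUFS6, UQCRFS1 and ATP5S), each less lowered in MDA-MB-231, where 5.65% of all tested genes had a difference in that direction. For hypoxia in total RNA and for NPP on polysomes 0 subunits differed by edgeR and by DESeq2, with 0 and 1 at an unadjusted p under 0.05. Shares over all tested genes are not given for these comparisons, so the counts of 0 are not read as particular to the subunits. Of the 6 with an unadjusted p under 0.05 for HPP, UQCRB had the largest difference, 1.47 (SE 0.52, edgeR adjusted p = 0.133), with MDA-MB-231 less lowered.

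The cytosolic ribosomal protein mRNAs had lower polysomal medians than the subunits, and those of the mitochondrial ribosome had medians near theirs under HPP, but no difference between the groups was tested. The cytosolic ribosomal proteins, the best known mTOR-dependent group, had 73 of 82 lower in MCF10A and 79 of 82 in MDA-MB-231, with medians of −2.80 and −1.95, respectively, where 11.9% and 9.73% of all tested genes fell. The mitochondrial ribosomal proteins had 23 and 38 of 77 lower, with medians of −1.06 and −0.55. In Te the medians were −1.05 for the subunits and −0.69 for the mitochondrial ribosomal proteins under HPP in MCF10A, where 22 and 11 were lowered, and −0.85 and −0.57 under NPP, where none were. These MCF10A medians without N P replicate 1 were −0.41 and −0.25 under HPP and −0.22 and −0.13 under NPP. In MDA-MB-231 they were −0.26 and −0.18 under HPP, with 1 and 0 lowered, against −0.12 and −0.05 without N P replicate 1 and −0.42 and −0.36 without N P replicate 2. The 13 subunits encoded by mitochondrial DNA, which mitochondrial ribosomes translate, had no calls by edgeR and none at an unadjusted p under 0.05, with medians of −0.23 and −0.08. Without N P replicate 1 the MCF10A medians were −2.08 for the cytosolic ribosomal proteins, with 33 lower, −0.50 for the mitochondrial ones, with 4 lower, and 0.07 for the genes of mitochondrial DNA, where 4.43% of all tested genes fell. In normoxia these 13 were low in P against T in both lines, with medians of −2.68 in MCF10A, where none passed, and −2.61 in MDA-MB-231, where 12 were lower. Their summed level was 46909 to 87254 CPM in the T libraries and 3619 to 12100 CPM in the P libraries. Assembly factors had 11 of 48 lower in MCF10A and 13 lower and 1 higher in MDA-MB-231, with medians of −0.71 and −0.34, and 3 were lower in MCF10A without N P replicate 1, with a median of −0.31.

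**Figure D5:**
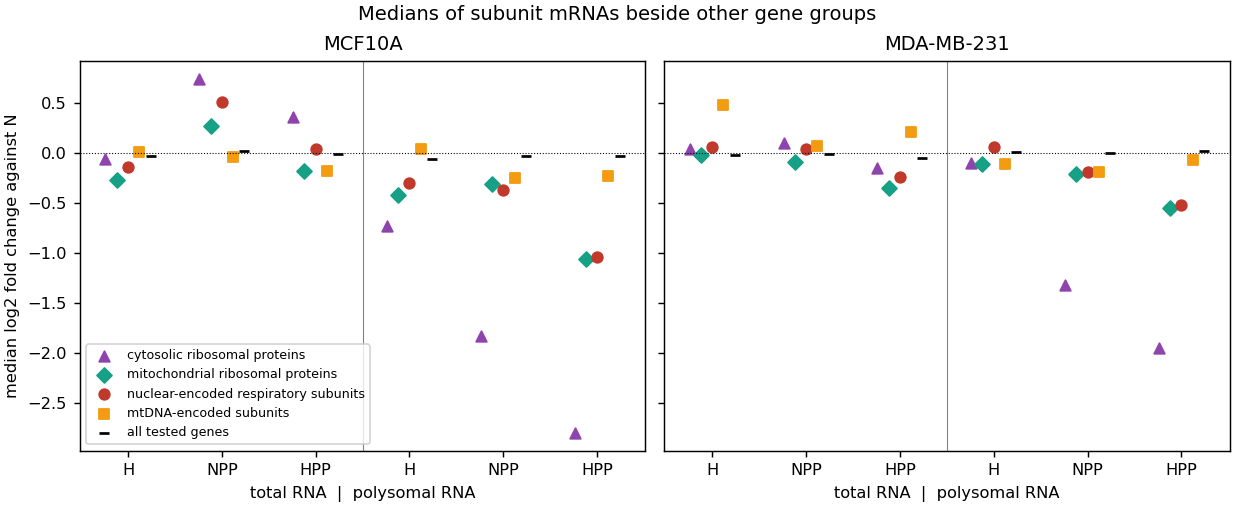
The y axis gives the median log2 fold change against N of each gene group and the x axis the condition, total RNA left and polysomal RNA right of the line. Under HPP on polysomes the subunits and the mitochondrial ribosomal proteins lie at nearly the same values in each line, −1.04 and −1.06 in MCF10A, then −0.52 and −0.55 in MDA-MB-231, with the cytosolic ribosomal proteins lower at −2.80 and −1.95.

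Of the remaining electron carriers and subunits outside the symbol rule, 5 of 17 were lower in MCF10A polysomes under HPP, and 6 were lower and 1 higher in MDA-MB-231, where 11.9% and 9.73% of all tested genes fell. CYCS, cytochrome c, fell by 2.25 in MCF10A (edgeR adjusted p = 0.000996) and by 0.65 in MDA-MB-231 (edgeR adjusted p = 0.0209). NDUFAB1, the acyl carrier protein of complex I, fell in MDA-MB-231 (−0.77, edgeR adjusted p = 0.0162) and had −1.04 in MCF10A (edgeR adjusted p = 0.0739). Of the regulators of respiratory genes the coactivator PPARGC1A did not pass at 2.92 and 1.08. In the joint fit its line difference in this response was imprecise, at −1.85 (SE 1.26). Its normoxic total RNA was 5.42 log2 units higher in MDA-MB-231 than in MCF10A (SE 1.09). Of all 12 regulators 5 and 4 were lower, while TFAM, which packages mitochondrial DNA, did not pass at −0.48 and −0.41. HIF targets that act on respiration went the other way, with 5 of 9 higher in MCF10A and 6 higher and 1 lower in MDA-MB-231, where 10.2% and 9.71% of all tested genes rose. Without N P replicate 1 of MCF10A 1 of the 17, 3 of the 12 and 3 of the 9 passed there, in the same directions, where 4.43% of all tested genes fell and 4.46% rose. PDK1, which restrains pyruvate entry into the citric acid cycle, rose in MDA-MB-231 (1.84, edgeR adjusted p = 7.7e-05) and had 1.16 in MCF10A (edgeR adjusted p = 0.0637). LONP1, the matrix protease known to remove COX4I1 in hypoxia, rose in both lines (1.01, edgeR adjusted p = 0.034, and 0.54, edgeR adjusted p = 0.0314). HIGD1A, a HIF-induced partner of complex IV, had −1.04 in MCF10A (edgeR adjusted p = 0.0638) and fell by 0.61 in MDA-MB-231.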

How the data were processed

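The authors isolated total RNA and RNA from the pooled polysomal fractions of sucrose gradients, mapped the reads with STAR and estimated counts per gene with RSEM. The methods name GRCh38, while the submitters' processing notes name GRCh37, and gene positions here come from a GRCh38 annotation matched by gene identifier. The counts were deposited as whole, unnormalised numbers, in 1 table per line with 16 columns each, and 0 columns were left without a sample.

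Protein-coding genes were filtered with filterByExpr, scaled by TMM and fitted with edgeR 4.0.16 (limma 3.58.1, R 4.3.3) as 8 group means per line, or 16 in the joint fit. Quasi-likelihood tests were adjusted by Benjamini-Hochberg over all tested genes (13124, 13510 and 14298), at 0.05. Te was the difference of the polysomal and total log2 fold changes, which the methods text writes as a ratio, and its thresholds follow the study's supplementary table, since the methods text exchanges those of the lines. CPM values use TMM library sizes of the line, or of the joint fit where lines are compared. DESeq2 1.42.0, no filter on low counts, replicate and culture blocks, a length offset (lowess span 0.3), the 4 compared libraries alone and leaving out each library were alternatives, and tables were made with Python 3.11.15 and pandas 2.3.3. Biological replicates are as labelled, with no statement of how separate they were. The p-values measure the spread between the 2 libraries of a group, pooled over all groups of the fit and moderated across genes. A floor of 3 counts corresponded to 0.0658 to 0.167 CPM.

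The subunits, gene lists and named genes were chosen with earlier results of these data known. Named genes were all isoform pairs and SDHA to SDHD, per comparison up to 3 called subunits with the largest log2 fold change in each direction and the highest and lowest of each complex, and, of the other lists, up to 3 called genes per direction and 8 further genes. The promoter motif, the genes whose sequences are shown and any other gene named were chosen after values were seen. Protein lengths are those of canonical coding sequences in GENCODE, and no amino acid sequences were used here. An item among the named genes is not reported here.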

Additional observations from a re-analysis of the deposited data

Results flagged for a closer look

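In the polysomal response to hypoxia with PP242 no subunit differed between the lines by edgeR. DESeq2 called 1, and a replicate block within each fraction 5. Among the accompanying lists 5 genes differed (MDA-MB-231 minus MCF10A, edgeR interaction in the joint fit, 2 libraries per group). These lists held 13 subunits of mitochondrial DNA, 17 other subunits and carriers, 48 assembly factors, 12 regulators and 9 HIF targets tested in each line. Whether 5 exceeded the share of all tested genes given above was not tested. PPARGC1B, a coactivator of respiratory genes, had a difference of 2.81 (adjusted p = 0.0368), with 1.33 and 2.10 CPM in N and 0.0278 and 0.135 CPM in HPP in MCF10A and 1.52 and 2.36 CPM and 0.761 and 0.667 CPM in MDA-MB-231, where the first MCF10A value in HPP lies under the 3-count floor. PPRC1, its relative, had 1.71 (adjusted p = 0.00502), with 65.6 and 56.5 CPM falling to 9.36 and 9.34 CPM in MCF10A and 64.4 and 93.2 CPM to 39.9 and 40.2 CPM in MDA-MB-231. COA7, an assembly factor, had 1.68 (adjusted p = 0.00105), from 55.0 and 56.6 CPM to 9.69 and 8.30 CPM in MCF10A and from 95.1 and 111.5 CPM to 53.7 and 54.3 CPM in MDA-MB-231. CYCS had 1.59 (adjusted p = 0.015), from 428 and 313 CPM to 91.0 and 64.5 CPM in MCF10A and from 701 and 765 CPM to 461 and 476 CPM in MDA-MB-231. MXI1, a HIF target that opposes MYC, had −1.62 (adjusted p = 0.0133), from 5.97 and 5.73 CPM to 69.4 and 39.8 CPM in MCF10A and from 9.36 and 6.75 CPM to 23.9 and 25.2 CPM in MDA-MB-231. Line, medium and sequencing cannot be told apart.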

How the results depend on the processing

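No called result changed sign under any alternative. With each library left out in turn, the number of subunits called ranged from 0 to 1 for MCF10A T HPP, 0 to 32 for MCF10A P HPP, 0 to 1 for MDA-MB-231 T HPP, 0 to 4 for MDA-MB-231 P H, 3 to 41 for MDA-MB-231 P HPP, 0 to 3 for MDA-MB-231 P NPP, 5 to 47 for MDA-MB-231 load N, 4 to 22 for joint level N T, 3 to 24 for MCF10A Te HPP and 0 to 1 for MDA-MB-231 Te HPP, and stayed at 0 for the others. DESeq2 called 30 (MCF10A P HPP), 1 (MDA-MB-231 T H), 2 (T HPP), 4 (P H), 7 (P NPP), 49 (load N), 1 (line difference in P HPP) and 2 (MCF10A Te NPP). Without a filter on low counts there were 2 (MDA-MB-231 T HPP), 9 (P H), 6 (P NPP), 49 (load N), 3 (MCF10A Te HPP) and 0 (MDA-MB-231 Te HPP). The length offset gave 30 (MCF10A P HPP), 2 (MDA-MB-231 T HPP), 48 (load N) and 2 (MCF10A Te NPP), and the 4 libraries alone 2 (MDA-MB-231 T HPP) and 1 (P NPP). Without N P replicate 1 and NPP T replicate 2, MCF10A had 4 (P HPP) and 5 (Te HPP). For Te under HPP the thresholds of the methods text called 10 in MCF10A, the interaction 0, and the interaction with a culture block 0 in MCF10A and 0 in MDA-MB-231, and a culture block called 18 in load N. The causes were not tested.

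T and P libraries of a group with the same replicate number share a culture number in their titles, and the culture block uses that pairing, while the labels pair no libraries across treatments. Deviations of same-numbered libraries correlated above 0.1 in 10 of 28 pairs of groups in MCF10A and 23 of 28 in MDA-MB-231, and within fractions in 6 of 6 (T, r from 0.437 to 0.891) and 3 of 6 (P) in MCF10A, against 5 of 6 (T) and 5 of 6 (P) in MDA-MB-231. Only T of MCF10A met the rule for pairing. Between T and P of the same culture number r exceeded 0.1 in 0 of 4 treatments in MCF10A (−0.416 to 0.0691). In MDA-MB-231 it did so in 3 of 4 (−0.0149 to 0.465). Between T and P of different treatments r ran from −0.745 to 0.207 in MCF10A and from −0.218 to 0.409 in MDA-MB-231. With a replicate block 11 subunits were called in MCF10A P HPP, 40 in MDA-MB-231 P HPP, 1 in MDA-MB-231 T H, 2 in T HPP and 4 in P H. With a replicate block within each fraction the counts were 4 (MCF10A T HPP), 45 (P HPP), 2 (P NPP), 52 (load N), 3 (Te NPP), and in MDA-MB-231 4 (T HPP), 4 (P H), 5 (P NPP) and 55 (load N), with 5 for the line difference in P HPP. Of single named genes 84 values lost and 72 gained the threshold, 165 moved by more than their SE without a call and 5817 did neither, and of the medians 27 moved by more than the spread and 571 did not. Without division by length 2 of 3 isoform shares moved in N P of MDA-MB-231, that of ATP5G2 from 31.4 to 38.4% and that of COX7A2L from 25.2 to 50.7%. With 2 libraries per group, no permutation of single values can go below p = 0.333.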
